A study of Mus musculus with 20 samples.

Results

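The genes described here encode the pore-forming alpha1 subunits of the voltage-gated calcium channels found in neurons. The 8 members were taken by symbol, and all their transcripts were summed per gene, out of 35580 genes summed in the same way. They are Cacna1a, Cacna1b and Cacna1e of the Cav2 class, Cacna1c and Cacna1d of the Cav1 class, and Cacna1g, Cacna1h and Cacna1i of the Cav3 class. The rule itself used no measured value, though the genes were picked with earlier results of these data known. All 8 passed the filter on low counts in every comparison.

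RNA-seq had been carried out on bulk hippocampus and neocortex of male mice aged 13.5 months on a C57BL/6J background. WT mice were wild-type controls with no agent given, and miR-324-null mice carried a CRISPR/Cas9 deletion of Mir324 in every tissue, so the loss was not limited to neurons. The founders were a C57BL/6 and CBA/Ca mixture that had been backcrossed. There were 5 samples in each of 4 groups, 20 in all, and the labels tie no hippocampus to a neocortex of the same animal. The Mir324 hairpin itself was not analysed here, so the genotype labels were not checked against it. The total of estimated counts per sample lay between 12752439 and 19617765.

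An alpha1 subunit is a single long chain whose 4 homologous domains fold around the calcium pore and carry the voltage sensors. Beta and alpha2delta subunits bind it and set how much channel reaches the membrane. Cav2 channels (P/Q-type from Cacna1a, N-type from Cacna1b, R-type from Cacna1e) sit mostly at nerve terminals, where calcium entry triggers transmitter release, and R-type channels are also found in dendrites and spines. Cav1 channels (L-type) couple depolarisation to gene transcription and shape firing, and Cav3 channels (T-type) open near the resting potential and support burst firing. Several of these genes are linked to absence epilepsy, ataxia or other disorders of excitability.

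The question put to these genes was whether their levels differ between hippocampus and neocortex, and between WT and miR-324-null mice. The mature strands of Mir324 are printed because the genotype comparison removes them. They are encoded at chr11:70012060-70012082 and chr11:70012095-70012114 (GRCm38.p6, plus strand, sequences from RefSeq), and capitals mark the seed, bases 2 to 8.
mmu-miR-324-5p: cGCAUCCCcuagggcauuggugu
mmu-miR-324-3p: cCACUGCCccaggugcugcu

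The annotated 3′UTRs (GENCODE, GRCm38) of the members were searched for the reverse complement of each seed, GGGATGC for the 5p strand and GGCAGTG for the 3p strand. A match to the 5p seed lay in 3 of 8 members (Cacna1b, Cacna1c and Cacna1d), against 11.2% of 14321 tested genes with a 3′UTR. A match to the 3p seed also lay in 3 of 8 members (Cacna1d, Cacna1h and Cacna1i), against 20.1% of those genes. The longest annotated 3′UTR of Cacna1c is 6652 bases, while the median over those genes is 1426 bases. That of Cacna1d, 7621 bases, belongs to Cacna1d-208, a transcript annotated as a target of nonsense-mediated decay. Its matches are spread from chr14:30042228 to chr14:30123124, and of 6 Cacna1d transcripts with a 3′UTR it is the 1 with a match to either seed. Longer annotations offer more sequence to match, but that of Cacna1e, the longest of the members at 7662 bases, held no match to either seed. The part of 3′UTR length in these matches was not tested. The 2 sites below each lie in the transcript with most of its gene's counts. Capitals mark the 7 bases opposite the seed, and 12 bases before and 6 after are shown.
Cacna1c-207, 5p seed, chr6:118589600-118589606, minus strand: ttgcctggccctGGGATGCccctcc
Cacna1b-202 and Cacna1b-204, 5p seed, chr2:24605477-24605483, minus strand: actctcagggatGGGATGCctgcca

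Cacna1c-207 held 92.4% of the estimated counts of Cacna1c, so nearly all Cacna1c reads came from a transcript with that site. The Cacna1b site lies in Cacna1b-204, with 78.5% of that gene's counts, and in Cacna1b-202, with 6.65%. The Cacna1d sites lie in Cacna1d-208, a transcript annotated as a target of nonsense-mediated decay with 6.98% of the counts, the Cacna1h site lies in Cacna1h-202, and the Cacna1i site lies in Cacna1i-205, whose mean count was 0. A match of these letters is a description and no sign of binding. None of these transcripts that could be tested was called between genotypes. Cacna1c-207 differed by -0.01 ± 0.11 (SE, log2) in hippocampus and 0.11 ± 0.08 in neocortex, with adjusted p-values of 0.9999 and 0.902 from edgeR on single transcripts. Cacna1b-204 differed by -0.00 ± 0.08 and 0.02 ± 0.11, with adjusted p-values of 0.9999 and 0.9992. Cacna1d-208, on a mean of 59.1 counts, differed by -0.37 ± 0.32 and 0.59 ± 0.27 (adjusted p 0.9999 and 0.80 from the same test).

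The libraries fitted their tissue labels. Summed markers of hippocampal fields lay between 476 and 610 CPM, the count scaled to a common library size, in hippocampus and between 137 and 209 in neocortex, and markers of neocortical layers lay between 108 and 170 and between 291 and 416. Markers of choroid plexus were high in 3 libraries: WT hippocampus replicate 3 (4510 CPM), miR-324-null hippocampus replicate 5 (3876 CPM) and miR-324-null neocortex replicate 2 (801 CPM), against 15.7 to 140 CPM in the rest. Markers of striatal neurons in neocortex ranged from 118 to 301 CPM in WT and from 167 to 463 CPM in miR-324-null. WT hippocampus replicate 5 held Tcf7l2, a thalamic transcript, at 44.2 CPM against 3.88 to 9.13 CPM in the other libraries. The 4 thalamic markers, Tcf7l2 among them, summed to 156 CPM there and to 54.7 to 137 CPM in the other libraries. The other markers of that list are not given singly. Members whose call is lost without the choroid plexus or striatal libraries are given with both values. The striatal libraries, over 250 CPM of those markers, are 3 of 5 miR-324-null neocortex samples (replicates 1, 3 and 4) and WT neocortex replicate 2. Fits without them therefore had fewer samples. In bulk tissue, fewer cells of a type and less RNA per cell cannot be told apart.

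All levels of single genes below are TMM-normalised CPM of the summed estimated counts unless TPM is named. A gene was called at an adjusted p of at most 0.05, taken from the quasi-likelihood test of edgeR with Benjamini-Hochberg adjustment across every gene tested. Differences are log2 fold changes with their standard errors, and gene positions are on GRCm38.

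**Figure D1:**
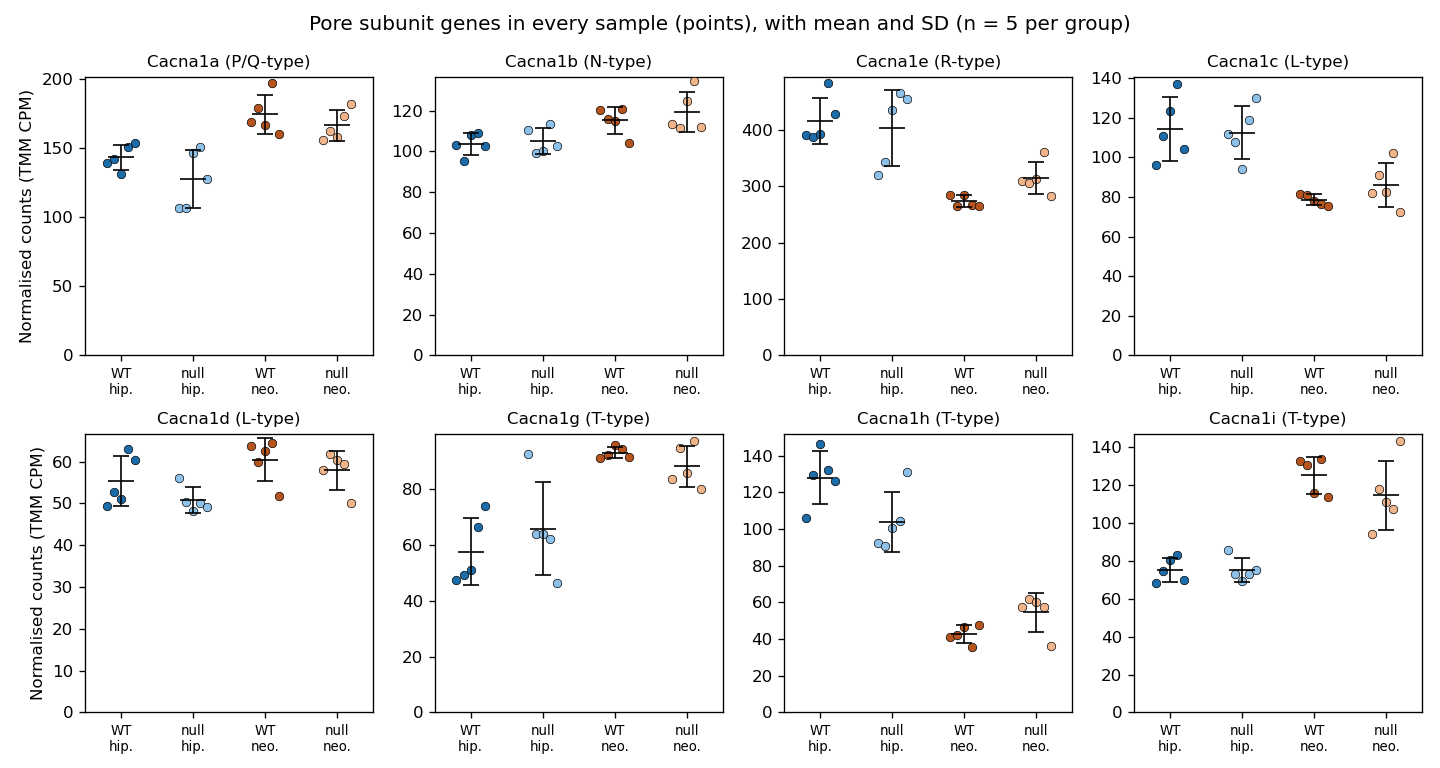
TMM-normalised CPM (vertical axes, from 0, a separate scale for each gene) of the 8 pore subunit genes in the 20 samples. Points are samples, bars the mean and SD of 5 samples; hip. is hippocampus, neo. neocortex and null miR-324-null. Cacna1h is high in hippocampus and low in neocortex, Cacna1g and Cacna1i are the reverse, and WT and miR-324-null samples overlap in every gene and tissue.

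Most members differed between the tissues, in both directions. In hippocampus over neocortex of WT mice, 3 of 8 members were higher (Cacna1h, Cacna1e, Cacna1c), 4 were lower (Cacna1i, Cacna1g, Cacna1a, Cacna1b) and Cacna1d was not called. Of all genes tested in this comparison 36.1% were called, 18.1% as higher and 18.0% as lower, so differences between the tissues were common; 7 members and 44.1% of all genes had an unadjusted p of at most 0.05. In miR-324-null mice 3 members were higher and 3 lower, against 27.4% of all genes called, 13.8% higher and 13.6% lower. The median difference of the members was -0.14 in WT and -0.18 in miR-324-null, beside -0.00 and 0.01 over all genes tested. Samples of the tissues did not overlap for 6 members in WT and 3 in miR-324-null, against 26.5% and 21.1% of all genes.

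Among the Cav3 genes the direction differed. Cacna1h, the Cav3.2 T-type channel (chr17:25374285-25433783, minus strand), stood at 106, 129, 146, 132 and 126 CPM in WT hippocampus and at 40.9, 42.3, 46.4, 35.7 and 47.9 CPM in WT neocortex. Every hippocampus was above every neocortex by a wide gap. It was 3.0-fold higher in hippocampus (log2 1.59 ± 0.09, adjusted p 2.8e-08), the largest difference among the members. In miR-324-null mice the values were 92.2, 90.8, 101, 104 and 131 CPM against 57.3, 61.9, 60.0, 57.3 and 36.1 CPM, again without overlap. The difference there was 1.92-fold (log2 0.94 ± 0.14, adjusted p 3.3e-04). Without the libraries high in choroid plexus markers it was 1.54 ± 0.09 in WT and 0.89 ± 0.14 in miR-324-null.

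Cacna1g, the Cav3.1 T-type channel that is prominent in thalamic relay neurons, went the other way. It stood at 47.3, 49.0, 50.9, 66.3 and 73.9 CPM in WT hippocampus and at 91.0, 92.1, 95.6, 94.4 and 91.4 CPM in WT neocortex. The neocortex samples lay within a narrow band, and all were above the hippocampus samples. The hippocampus level was 0.617 of that in neocortex (log2 -0.70 ± 0.11, adjusted p 1.9e-04). The highest WT hippocampus was replicate 5, the library with raised Tcf7l2, and without it the difference was -0.79 ± 0.08; the part of other tissue in these values was not tested.

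In miR-324-null mice Cacna1g was at 92.5, 63.7, 63.7, 61.9 and 46.4 CPM in hippocampus and at 83.5, 94.4, 85.8, 97.0 and 79.8 CPM in neocortex. Hippocampus replicate 1 lay within the neocortex range, so the tissues overlapped. The difference of -0.42 ± 0.14 passed the test (adjusted p 0.042) but not securely: leaving out any one of 8 of the 10 libraries took the adjusted p to between 0.05892 and 0.09412, and without the 2 libraries high in choroid plexus markers it was -0.29 ± 0.13 (adjusted p 0.14). Without the neocortex libraries over 250 CPM of striatal markers it was -0.40 ± 0.21 (adjusted p 0.25). With the mean transcript length of the gene in each sample taken into the fit, it was -0.217 ± 0.185 (adjusted p 0.45).

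Cacna1i, the Cav3.3 T-type channel of slow kinetics (chr15:80287238-80398279, plus strand), stood at 68.2, 74.6, 80.3, 83.0 and 70.0 CPM in WT hippocampus and at 133, 131, 116, 134 and 114 CPM in WT neocortex. The ranges were apart. It was lower in hippocampus by log2 -0.73 ± 0.07 (adjusted p 1.9e-06) in WT and by -0.60 ± 0.10 (adjusted p 6.6e-04) in miR-324-null, where hippocampus held 69.2 to 85.6 CPM and neocortex 94.0 to 143 CPM.

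Among the Cav2 genes, Cacna1e, the R-type channel (chr1:154390731-154884501, minus strand), was the highest of the family in CPM. It stood at 391, 387, 392.1, 483 and 429 CPM in WT hippocampus and at 285, 265, 285, 268 and 264 CPM in WT neocortex. The tissues did not overlap, and the level was 1.52-fold higher in hippocampus (log2 0.61 ± 0.06, adjusted p 5.7e-06). In miR-324-null mice hippocampus spanned 321 to 465 CPM and neocortex 283 to 361 CPM, with overlap. The difference of 0.37 ± 0.11 had an adjusted p of 0.023. Without the libraries high in choroid plexus markers it was 0.31 ± 0.12 (adjusted p 0.10). Without those high in striatal markers it was larger, with a larger error, at 0.47 ± 0.16 (adjusted p 0.089). Leaving out hippocampus replicate 4 or 5 or neocortex replicate 5 alone also ended this call, at adjusted p-values of 0.05143 to 0.05769. So did mean transcript lengths taken into the fit (0.32 ± 0.11, adjusted p 0.061).

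Cacna1a, the P/Q-type channel of fast release (chr8:84388440-84640246, plus strand), was lower in hippocampus. WT hippocampus held 139, 142, 131, 151 and 153 CPM, and WT neocortex 169, 179, 167, 197 and 160 CPM. The ranges were close but separate. The difference was -0.28 ± 0.06 in WT (adjusted p 0.0026) and -0.37 ± 0.10 in miR-324-null (adjusted p 0.015), where hippocampus spanned 107 to 151 CPM and neocortex 156 to 182 CPM. It was -0.10 (adjusted p 0.26) in WT and -0.15 (adjusted p 0.26) in miR-324-null when the mean transcript length of each gene in each sample was taken into the fit, so the call was lost with this setting. Without the libraries high in striatal markers the difference in miR-324-null mice was -0.42 ± 0.15 (adjusted p 0.10), larger in size and in error.

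Cacna1b, the N-type channel (chr2:24603887-24763152, minus strand), showed the smallest called difference. WT hippocampus held 95.4 to 109 CPM and WT neocortex 104 to 121 CPM, with overlap. The difference was -0.15 ± 0.05 in WT (adjusted p 0.037) and -0.17 ± 0.07 in miR-324-null (adjusted p 0.075, not called; 0.042 by DESeq2's Wald test). Leaving out any one of 7 of the 10 WT libraries took the adjusted p in WT to between 0.06666 and 0.1085, among them neocortex replicate 2, the WT library high in striatal markers. The call in WT was also lost with mean transcript lengths in the fit (-0.11 ± 0.11, adjusted p 0.52). It was lost too with no filter on low counts (adjusted p 0.059). With all 4 groups in 1 fit the adjusted p was 0.057 in WT and 0.024 in miR-324-null.

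The Cav1 genes also differed from each other. Cacna1c, the Cav1.2 L-type channel that makes up most L-type current in forebrain neurons (chr6:118587240-119196418, minus strand), stood at 96.3, 111, 124, 137 and 104 CPM in WT hippocampus and at 81.7, 81.2, 78.1, 76.3 and 75.5 CPM in WT neocortex. All hippocampus samples were above all neocortex samples. The level was 1.46-fold higher in hippocampus (log2 0.54 ± 0.08, adjusted p 1.5e-04), and in miR-324-null mice it was higher by 0.39 ± 0.10 (adjusted p 0.010). Cacna1d, the Cav1.3 L-type channel that opens at lower voltage (chr14:30039939-30491455, minus strand), held 49.5 to 63.0 CPM in WT hippocampus and 51.7 to 64.4 CPM in WT neocortex. Its difference of -0.13 ± 0.08 was not called (95% interval -0.30 to 0.04), nor was that of -0.18 ± 0.07 in miR-324-null (adjusted p 0.059).

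**Figure D2:**
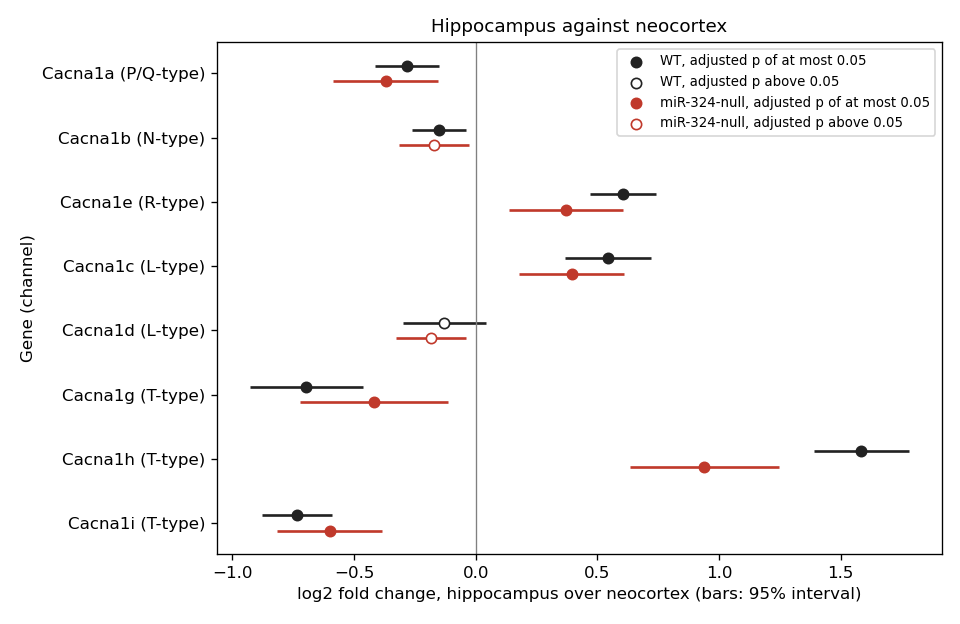
Log2 fold change of hippocampus over neocortex (horizontal axis) for each gene, in WT (black) and miR-324-null (red) mice; bars are 95% intervals and filled points have an adjusted p of at most 0.05. Cacna1h, Cacna1e and Cacna1c lie to the right of 0 and the other 5 genes to the left, in both genotypes.

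The tissue difference of Cacna1h was smaller in miR-324-null than in WT mice, by -0.65 ± 0.18 on the log2 scale (95% interval -1.03 to -0.28). The interaction of tissue and genotype had an unadjusted p of 0.0016 and an adjusted p of 0.58, so it was not called. No member was called for the interaction, where 0.0195% of genes were called. One of the 8 members had an unadjusted p of at most 0.05, against 5.57% of all genes, and DESeq2's Wald test also called 0 members.

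No member was called between genotypes in either tissue by edgeR's test, nor by DESeq2's Wald test. Of all genes tested, 0.128% were called in hippocampus (0.0743% higher and 0.0541% lower in miR-324-null) and 0.315% in neocortex (0.161% higher and 0.154% lower). For no member did the genotypes stand apart without overlap, against 2.56% and 2.30% of all genes. At an unadjusted p of at most 0.05 there was 1 member in hippocampus (Cacna1h), against 11.1% of all genes, and 2 in neocortex (Cacna1e and Cacna1h), against 12.2%. The members' differences, miR-324-null over WT, ran from -0.30 to 0.19 in hippocampus (median -0.03) and from -0.12 to 0.36 in neocortex (median 0.00). The median over all genes was 0.00 in both tissues.

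Cacna1h fell on opposite sides of WT in the tissues. In hippocampus the miR-324-null mean was 104 ± 16 CPM against 128 ± 14 CPM in WT (SD, n = 5), a difference of -0.30 ± 0.10 (adjusted p 0.35). The highest miR-324-null value, 131 CPM, was replicate 5, which is also the miR-324-null hippocampus high in choroid plexus markers, and without it the difference was -0.40 ± 0.08 (adjusted p 0.12). In neocortex the miR-324-null mean was 54.5 ± 10.5 CPM against 42.6 ± 4.8 CPM in WT, a difference of 0.36 ± 0.13 (adjusted p 0.29). In neocortex 4 miR-324-null samples, at 57.3 to 61.9 CPM, were above every WT sample, and replicate 5, at 36.1 CPM, was below all but 1 of them.

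This library decides the call. Without miR-324-null neocortex replicate 5 the neocortex difference of Cacna1h was 0.48 ± 0.08 (adjusted p 0.006437), that of Cacna1e was 0.25 ± 0.06 (adjusted p 0.032), and the interaction for Cacna1h was -0.77 ± 0.14 (adjusted p 0.029). The count of all genes called in neocortex then rose from 47 to 566. That library held 409 CPM of neocortical layer markers, against 291 to 322 CPM in the other miR-324-null and 343 to 416 CPM in the WT neocortex samples. It also held the least striatal marker signal of the miR-324-null neocortex samples, 167 CPM against 205 to 463 CPM. Summed markers of hippocampal fields were 175, 209, 182, 192 and 156 CPM in miR-324-null neocortex, replicates 1 to 5. In WT neocortex they were 137 to 157 CPM. The 4 neocortex libraries over 250 CPM of striatal markers were 3 of 5 miR-324-null (replicates 1, 3 and 4) and WT replicate 2. Without them the Cacna1h difference was 0.20 ± 0.19 and that of Cacna1e 0.10 ± 0.07 (adjusted p 0.9997 for both). The miR-324-null neocortex libraries then left were replicate 2, at 61.9 CPM of Cacna1h, and replicate 5, at 36.1 CPM. This fit thus rests in part on the library that decides the call. The part of striatal or hippocampal tissue, or of dissection, in these differences was not tested.

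Cacna1e in neocortex was at 309, 306, 313, 361 and 283 CPM in miR-324-null and at 264 to 285 CPM in WT. Of the 5 miR-324-null samples 4 were above all WT samples, with replicate 5 within the WT range. The difference was 0.21 ± 0.06 (unadjusted p 0.0050, adjusted p 0.20). In hippocampus it was -0.04 ± 0.11, with a 95% interval of -0.28 to 0.19.

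The remaining 6 genes had differences of at most 0.19 in size in either tissue. Their 95% intervals show what size these samples leave possible. In hippocampus Cacna1b had the narrowest, at -0.10 to 0.14, and Cacna1g the widest, at -0.18 to 0.56, with samples of both genotypes widely spread. In neocortex Cacna1g had the narrowest, at -0.19 to 0.06, and that of Cacna1b was -0.08 to 0.20. Cacna1c, whose main transcript carries a match to the 5p seed, differed by -0.03 ± 0.10 in hippocampus and 0.14 ± 0.08 in neocortex (adjusted p 0.96 and 0.51).

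**Figure D3:**
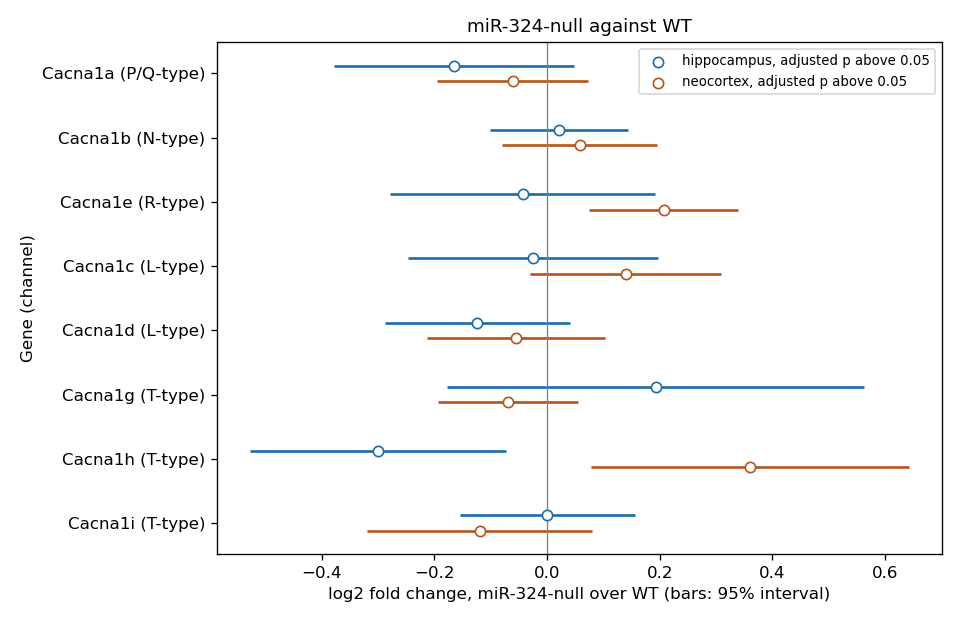
Log2 fold change of miR-324-null over WT (horizontal axis) for each gene in hippocampus (blue) and neocortex (orange); bars are 95% intervals and open points have an adjusted p above 0.05. No point is filled, and Cacna1h is the gene whose intervals lie on opposite sides of 0, at -0.53 to -0.07 and 0.08 to 0.64.

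Cacna1g shares chromosome 11 with Mir324, at chr11:94408391-94474198 on the minus strand (GRCm38). Of 28 tested genes that start within 1 Mb of its start, 5 were called between genotypes in hippocampus (17.9%) and 5 in neocortex (17.9%), against 0.128% and 0.315% of all genes. Mrpl27, a mitochondrial ribosomal protein gene, was lower in miR-324-null by -1.34 ± 0.06 and -1.42 ± 0.07. Gm20390, a gene model that overlaps Nme1 and Nme2 and shares their sequence, rose from 0.189 to 67.4 CPM and from 0.232 to 65.5 CPM. Nme2 fell by 0.64 and 1.34, and a change of level cannot be told apart from another division of reads among these overlapping models. Utp18 rose by 0.59 and 0.58, Rsad1 rose by 0.66 in hippocampus, and Nme1 fell by 0.46 in neocortex. Cacna1g, in the middle of this window, was not called in either tissue. Within 1 Mb of the other 7 members no tested gene was called between genotypes, save 1 of 10 near Cacna1e in neocortex.

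Levels were compared between genes as TPM, which is per length. The sum of the 8 members was 305 ± 37 TPM in WT hippocampus, 296 ± 31 in miR-324-null hippocampus, 309 ± 28 in WT neocortex and 312 ± 27 in miR-324-null neocortex (SD, n = 5). The family total therefore varied less between groups than within them. Cav2 genes held 50.04% to 53.11% of it on average in the 4 groups, Cav3 genes 36.0% to 38.6% and Cav1 genes 10.8% to 11.8%. In WT hippocampus the order of mean levels was Cacna1a (69.2 TPM), Cacna1g (48.1), Cacna1e (46.9), Cacna1h (46.5), Cacna1b (42.5), Cacna1d (20.1), Cacna1c (15.9) and Cacna1i (15.6). Only the step from Cacna1b to Cacna1d was between genes whose ranges did not overlap.

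In WT neocortex the order was Cacna1a (75.8 TPM), Cacna1g (75.0), Cacna1b (46.9), Cacna1e (32.1), Cacna1i (26.2), Cacna1d (22.9), Cacna1h (17.7) and Cacna1c (12.4). The steps from Cacna1g to Cacna1b and from Cacna1h to Cacna1c did not overlap. Cacna1h thus held 15.3% of the family's TPM in WT hippocampus and 5.69% in WT neocortex.

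The order rests on short transcripts, to which few reads give many TPM. Transcripts under 2000 bases held 78.5% of the TPM of Cacna1g but 15.7% of its estimated counts, and 60.8% of the TPM of Cacna1b but 7.45% of its counts. They held 58.3% of the TPM of Cacna1a but 10.4% of its counts, and 50.7% of the TPM of Cacna1h but 5.43% of its counts. Cacna1a-210, a processed transcript of 549 bases, alone held 42.1% of Cacna1a's TPM on a mean of 98.5 counts. For Cacna1e, Cacna1c and Cacna1i the long forms, of at least 6000 bases, held over 80% of the TPM. For Cacna1d they held 24.4% of the TPM and 41.0% of the estimated counts, so a level from long forms leaves out most of its reads.

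Over transcripts of at least 6000 bases, which can hold a whole coding sequence, Cacna1e was first in WT hippocampus at 44.9 ± 5.7 TPM, followed by Cacna1a (27.4), Cacna1h (24.1), Cacna1b (16.5), Cacna1c (14.7), Cacna1i (12.4), Cacna1g (9.56) and Cacna1d (4.44). Cacna1g was then seventh and not second. In WT neocortex Cacna1a (34.4 TPM) and Cacna1e (29.96) overlapped, Cacna1i (20.9) came next without overlap, and Cacna1h (8.08) was seventh. The T-type genes thus ranked Cacna1h, Cacna1i, Cacna1g in hippocampus and Cacna1i, Cacna1g, Cacna1h in neocortex on this scale, and in hippocampus the ranges of Cacna1i and Cacna1g overlapped.

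**Figure D4:**
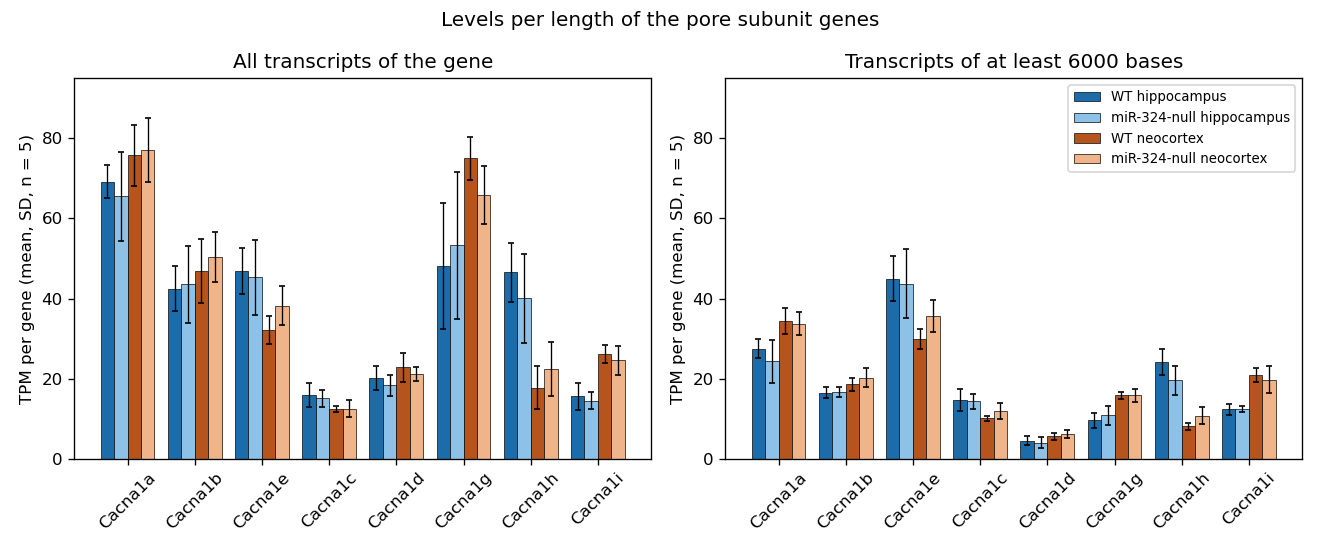
TPM per gene (vertical axes, from 0), mean and SD of 5 samples in each group, from all transcripts (left) and from transcripts of at least 6000 bases (right). Cacna1a and Cacna1g lead on the left, and Cacna1e and Cacna1a on the right.

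The members have 100 annotated transcripts in the files, from 6 for Cacna1i to 27 for Cacna1c. In the tissue comparison 42 were tested in WT and 39 in miR-324-null, and 5 were called in each, against 10.1% and 6.73% of all transcripts. Cacna1c-207 was higher in hippocampus by 0.61 ± 0.09 in WT (adjusted p 0.0013) and 0.49 ± 0.11 in miR-324-null (adjusted p 0.020). Cacna1e-203, with 99.1% of Cacna1e's counts, and Cacna1i-202, with 98.8% of Cacna1i's, were called in WT in the direction of their genes (0.63 ± 0.06 and -0.71 ± 0.07). No member transcript was called between genotypes, where 0.0291% and 0.0249% of transcripts were called.

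Cacna1h reads were divided between transcripts of 8230 bases (Cacna1h-205) and 8220 bases (Cacna1h-201), both protein coding. In WT hippocampus Cacna1h-205 stood at 17.8, 22.8, 26, 25.1 and 22.2 TPM and Cacna1h-201 at 1.29, 1.19, 0.785, 0.788 and 1.33 TPM. In WT neocortex Cacna1h-205 stood at 6.21, 1.11, 7.31, 0.974 and 7.06 TPM and Cacna1h-201 at 1.36, 6.48, 1.72, 5.81 and 1.84 TPM. Replicates 2 and 4 thus had the forms in the opposite order to the other 3. Cacna1h-205 held 89.6% ± 1.3 of Cacna1h's counts in WT hippocampus and 50.3% ± 33.6 in WT neocortex (two-sided p = 0.00794 by exact permutation, which with 5 samples a group can go no lower). As a share of TPM it was 49.3% ± 6.1 against 26.4% ± 20.2 (exact permutation p = 0.0556), which did not pass. The files give no uncertainty for how kallisto divided reads between such similar sequences, so the gene total is the firmer value.

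**Figure D5:**
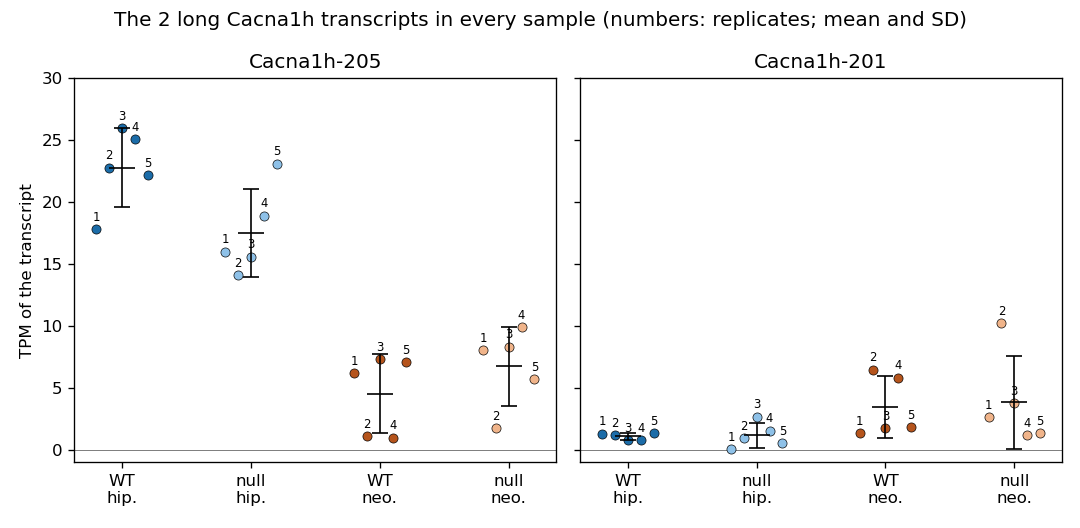
TPM (vertical axis, shared) of Cacna1h-205 and Cacna1h-201 in the 20 samples; numbers are replicates, bars the mean and SD of 5 samples. In neocortex the samples with low Cacna1h-205 (replicates 2 and 4 in WT, 2 in miR-324-null) are those with high Cacna1h-201.

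The share of each gene's TPM held by its most abundant transcript was also compared, in 32 exact permutation tests (two-sided). The same 32 were run again on shares of estimated counts, and the count share of Cacna1h-205 above is from that second set. On shares of TPM there were 6 with an unadjusted exact p of at most 0.05. Cacna1c-207 gave the widest shift among them, from 71.8% ± 1.1 in WT neocortex to 83.4% ± 4.8 in WT hippocampus (exact permutation p = 0.00794). It also stood at 80.3% ± 6.1 in miR-324-null neocortex (exact permutation p = 0.00794 against WT), but by estimated counts that genotype difference was -1.17 percentage points, the other way.

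The channels' partners were described from a list of 27 genes, of which 24 were tested. In WT, 5 were higher in hippocampus and 11 lower, beside 18.1% and 18.0% of all genes, and in miR-324-null 4 were higher and 10 lower, beside 13.8% and 13.6%. Of the beta subunits, which chaperone the pore to the membrane, Cacnb4 was lower in hippocampus (131 against 284 CPM, log2 -1.12 ± 0.08) and Cacnb2 higher (0.38 ± 0.06), and Cacnb3 was lower in WT (-0.27 ± 0.06). Of the alpha2delta subunits, some of which bind gabapentin, Cacna2d2 was lower (-0.58 ± 0.11 in WT and -0.92 ± 0.15 in miR-324-null) and the other 3 were not called.

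Of the gamma family, most of whose brain members are AMPA receptor partners, Cacng8 was higher in hippocampus (1.07 ± 0.07 in WT and 0.82 ± 0.07 in miR-324-null), Cacng5 was higher in WT (0.92 ± 0.13), and Cacng2, Cacng3 and Cacng7 were lower in both genotypes, by -0.66, -0.89 and -0.50 in WT. Cacng4 was lower in miR-324-null (-0.32 ± 0.10, adjusted p 0.036), a call that ended without any one of 8 of the 10 libraries (adjusted p 0.05494 to 0.09148) and, at -0.10 ± 0.12, without those high in striatal markers. Of the proteins that bind the channels, Cabp1, a calcium sensor, was lower by -1.36 ± 0.12 in WT, and Rims1 and Rims2, which tether Cav2 channels at release sites, were lower by -0.66 ± 0.10 and -0.78 ± 0.06. The adaptors Stac (4.10 against 0.434 CPM, log2 3.198 ± 0.313) and Stac2 (-1.10 ± 0.08) moved in opposite directions, and Calm3, which encodes the calcium sensor calmodulin, was higher in hippocampus (0.18 ± 0.04 in WT). With mean transcript lengths in the fit Calm3 was not called in WT (0.11 ± 0.05, adjusted p 0.080) or miR-324-null (0.19 ± 0.07, adjusted p 0.090). Without the striatal libraries the calls of Calm3 (0.20 ± 0.08, adjusted p 0.17) and Stac (1.545 ± 0.567, adjusted p 0.11) in miR-324-null mice ended.

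Between genotypes 1 partner was called, Cacng6, related to the gamma subunit of the skeletal muscle channel, in hippocampus. It was at 0.492 ± 0.130 CPM in miR-324-null and 1.78 ± 0.58 CPM in WT (log2 -1.83 ± 0.30, adjusted p 0.046), few reads in either. Leaving out a single library took its adjusted p above 0.05 for 8 of the 10 libraries, to between 0.0974 and 0.147. Mean transcript lengths in the fit also ended the call (adjusted p 0.071). DESeq2's Wald test did call it (adjusted p 0.0011), as did edgeR with all 4 groups in 1 fit (adjusted p 0.031). No partner was called in neocortex by edgeR's test; 10 of 24 had an unadjusted p of at most 0.05, against 12.2% of all genes, and DESeq2's Wald test called 1, Stac2 (-0.36, adjusted p 0.018). Cacng6 did not pass the low-count filter there, and with all 4 groups in 1 fit it differed by -1.93 ± 0.38 (adjusted p 0.026). It was also called without WT neocortex replicate 2 (-2.19 ± 0.25, adjusted p 0.0017) and without miR-324-null neocortex replicate 5 (-1.86 ± 0.46, adjusted p 0.044). The same held without the striatal libraries (-2.56 ± 0.37, adjusted p 0.045). The paper lists Cacng6 as lower in miR-324-null in both tissues.

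For the 3 members with the largest tissue difference in WT, the genes nearest in pattern were found among 14544 genes, by the root mean square difference of centred log2 CPM over the 20 samples. Nearest to Cacna1h were Fat4 (0.157), Kctd12 (0.157) and Mcm6 (0.162), where the median gene was 0.699 away. Nearest to Cacna1i were Foxp1 (0.112), Ppme1 (0.120) and Sel1l3 (0.122), with a median of 0.400, and nearest to Cacna1g were Ankrd24 (0.109), Lnx1 (0.150) and Pcgf2 (0.150), with a median of 0.405.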

How the data were processed

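The members and gene lists were chosen with earlier results of these data known. RNA was extracted and stranded mRNA libraries were sequenced by the authors, who ran kallisto against a mouse transcriptome given as GRCm38 in the paper; the submitters' processing notes name GRCh38, but the transcript identifiers are mouse. The strand setting is not given in the sources used here. The deposited values are estimated counts and TPM per transcript, from the authors' kallisto run, per sample, without pooling; effective lengths were also used.

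Of 115270 transcripts 113580 were matched to GENCODE M21 and summed over 35580 genes; the 1690 others held at most 0.556% of a sample's counts. Estimated counts were rounded and tested with edgeR 4.0.16 (R 4.3.3; TMM, filterByExpr, quasi-likelihood), with Benjamini-Hochberg adjustment over all genes at 0.05, on the 2 groups compared, and on all 4 groups for the interaction. Single transcripts were tested alike. Shares were compared by exact permutation tests in scipy 1.17.1. Genes named were the 8 members, partners called in a comparison, called genes within 1 Mb of Cacna1g and the 3 nearest in pattern. Of the partners called, 1 is not reported here. No pair of samples held identical values. The labels number samples 1 to 5 in each group without naming animals, so p-values measure the spread between these samples. Sites and intervals cover no uncertainty of read assignment. Alternatives were DESeq2 1.42.0 size factors and Wald test, other count filters, a transcript-length offset (the nearest to the authors' Tximport step), a replicate block, all groups in 1 fit, and each library left out; leaving out libraries high in choroid plexus or striatal markers and restricting levels to transcripts of at least 6000 bases were chosen after seeing the data. The scripts were tested on simulated data.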

Additional observations from a re-analysis of the deposited data

Results flagged for a closer look

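There were 2 values that stood far from the other 4 samples of their group by Dixon's test at its 95% critical value, among 32 groups of member and condition examined; chance alone flags about 1 group in 20. Cacna1h in miR-324-null neocortex had its lowest sample, replicate 5, at 36.1 CPM, while the others lay between 57.3 and 61.9 CPM (gap over range 0.821). Cacna1d in miR-324-null hippocampus had its highest sample, replicate 1, at 56.0 CPM, while the others lay between 48.3 and 50.3 CPM (gap over range 0.740). Without that library the tissue difference of Cacna1d in miR-324-null mice was -0.22 and passed the threshold (adjusted p 0.029, edgeR).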

How the results depend on the processing

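All 8 members kept the direction of their tissue difference in both genotypes under every setting run, and Cacna1h, Cacna1c and Cacna1i kept their calls. Genes called in miR-324-null tissue came to 2054 without the striatal libraries, with 3 members called there and 3 with the length offset. Between genotypes in hippocampus, 19 genes became 9 (at least 10 counts in every sample), 139 (DESeq2's Wald test) and 83 (all groups in 1 fit), and the 1 partner became 0 with at least 10 counts, the length offset, the replicate block or without choroid plexus libraries. In neocortex, 47 genes became 26 (at least 10 counts), 240 (DESeq2), 30 (length offset) and 25 (without striatal libraries), and partners 1 (DESeq2, 1 fit, or without striatal libraries). The 3 interaction genes became 11 (DESeq2) and 1 (length offset, or without either set of libraries).

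Differences that changed sign, none of them called, were Cacna1i in hippocampus at -0.00138 (DESeq2 size factors), -0.003419 (no filter), -0.001509 (DESeq2 Wald) and -0.1093 (length offset), and in neocortex Cacna1c at -0.04322 (length offset), Cacna1b at -0.04036 and Cacna1i at 0.07394 (both without striatal libraries). For the interaction they were Cacna1d at 0.03309 (length offset), Cacna1b at 0.06281 and Cacna1i at -0.07276 (without striatal libraries). The Cacna1c-207 share between genotypes in neocortex was -1.174 points by estimated counts. The members' summed level was 176.2 TPM over protein-coding transcripts, 149.2 TPM over those of at least 6000 bases and 188.7 as CPM per kilobase. Except where the setting itself shows it, the cause was not tested.

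Leaving out 1 library at a time gave 10 to 33 genes and 0 to 1 partners in hippocampus, 27 to 566 genes, 0 to 2 members and 0 to 5 partners in neocortex, and 1 to 20 genes and 0 to 1 members for the interaction. The highest neocortex and interaction counts came without miR-324-null neocortex replicate 5. In hippocampus Cacna1b ranged from -0.007604 to 0.04143, Cacna1c from -0.08333 to 0.04793, Cacna1e from -0.09991 to 0.02833 and Cacna1i from -0.0497 to 0.03795, and the interaction of Cacna1b from -0.06272 to 0.01348.

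Samples with the same replicate number had correlated deviations in part: in miR-324-null tissue all 5 correlations were positive (0.016 to 0.177) and 3 of 5 samples matched their own number best. Between the tissues of WT mice they ran from -0.102 (replicate 5) to 0.101 (replicate 1), and replicates 1 and 3 matched their own number best. Between genotypes, which are different mice, they ran from -0.172 to 0.121. There replicate 4 in hippocampus and replicate 3 in neocortex matched best. In no comparison did every pair exceed 0.1. The labels name no animals, so the numbers were not taken to pair samples, and these values do not settle whether they do. A replicate block gave 4 genes called between genotypes in hippocampus and 30 in neocortex, 5044 between tissues in WT and 4041 in miR-324-null (5379 and 4125 without it), and changed no count of members called. Estimated counts of a member were at least 505 in every sample, and reads shared by similar transcripts limit the transcript values.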
